A study of Mus musculus with 6 samples.

Results

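Drop-seq pairs each cell with a barcoded bead inside a droplet, and the comparison described here asked which genes this capture gains or loses against a conventional RNA library made from the same kind of material. Unique molecular identifiers (UMIs) were summed over all barcodes in each of 4 Drop-seq tables of dissociated mouse glomeruli, and each sum was set against 1 bulk mRNA library of dissociated glomerular cells. A gene was included where the bulk library held at least 100 counts or where every Drop-seq table held at least 10 UMIs. Of 49492 gene names in the bulk tables, 13057 met that rule. Of these, 9842 met both conditions, 2499 met it through UMIs only and 716 through bulk counts only.

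The glomerulus is the filtration unit of the kidney. Podocytes wrap its capillaries with foot processes joined by the slit diaphragm, endothelial cells line the capillaries, mesangial cells hold the tuft together, and a shared basement membrane lies between podocytes and endothelium. In Drop-seq each bead carries oligo-dT primers that anneal to stretches of A, normally the poly(A) tail, and the molecule is counted once by its UMI near the 3′ end. In a poly(A)-selected bulk library the RNA is fragmented and reads come from along the whole transcript, so a long transcript gives more reads than a short one at the same number of molecules.

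All samples came from 8-week-old males of the outbred CD1 IGS strain. The 4 Drop-seq libraries and the dissociated bulk library were made from dissociated cells fixed in 80% methanol in PBS. The bulk library was made from sorted fixed cells (95 ng of total RNA) with a stranded Illumina TruSeq mRNA kit. A second bulk library came from whole isolated glomeruli that were neither dissociated nor fixed, with 500 ng of total RNA, and its values are given beside some genes. The labels do not say whether the Drop-seq replicates came from separate animals or how many animals were pooled, so p-values measure only the spread between these libraries. The bulk side is a single library, which the model takes to vary as the Drop-seq libraries do.

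The Drop-seq tables held 4484108, 6411775, 3528543 and 4133132 UMIs in 4623, 4429, 3077 and 3336 barcodes. The dissociated bulk library held 24555632 reads assigned to genes, and the whole-glomeruli library 28407317. Pairs of Drop-seq tables shared 8 to 10 barcode sequences, and 7 were present in all 4. Podocyte genes were abundant in both kinds of library: 895, 694, 782 and 798 CPM of Nphs1, which encodes the slit diaphragm protein nephrin, were counted in the 4 Drop-seq libraries and 3460.1 CPM in the bulk library. Markers of other cells were also present. Distal tubule and collecting duct markers made up 0.431% to 1.04% of UMIs, with the highest share in replicate 2, and 0.288% of bulk reads. Endothelial markers made up 0.247% to 0.390% of UMIs, with the lowest share in replicate 2, and 0.866% of bulk reads.

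Members were set side by side as CPM, the counts of a gene scaled to 1000000 counts per library. The log2 ratio is log2 of (Drop-seq CPM + 0.5) over (bulk CPM + 0.5), given as the mean ± SD of the 4 libraries (n = 4), and the added 0.5 makes it understate the difference of low genes. A gene was called higher or lower in Drop-seq where edgeR's quasi-likelihood test gave a Benjamini-Hochberg adjusted p below 0.05 and the difference was at least 4-fold in each of the 4 libraries. By that rule 2083 genes (16.0%) were higher and 589 (4.51%) were lower. Counts in the gene lists below are to be read beside these shares. The higher count rests on the inclusion rule: 1866 of the 2083 met it through UMIs only, and such a gene has fewer than 100 bulk reads by construction. Among the 9842 genes past both conditions, 217 (2.2%) were higher and 460 (4.67%) lower. By adjusted p alone, 4293 genes (32.9%) were higher and 4811 (36.8%) lower, a split that turned to 4935 higher and 3483 lower with DESeq2's size factors. The median log2 ratio over all genes was -0.15, and 0.06 or 0.12 after TMM or DESeq2 scaling. Over genes, the median SD between the 4 libraries was 0.23, and 46.4% of genes lay within 2-fold.

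**Figure D1:**
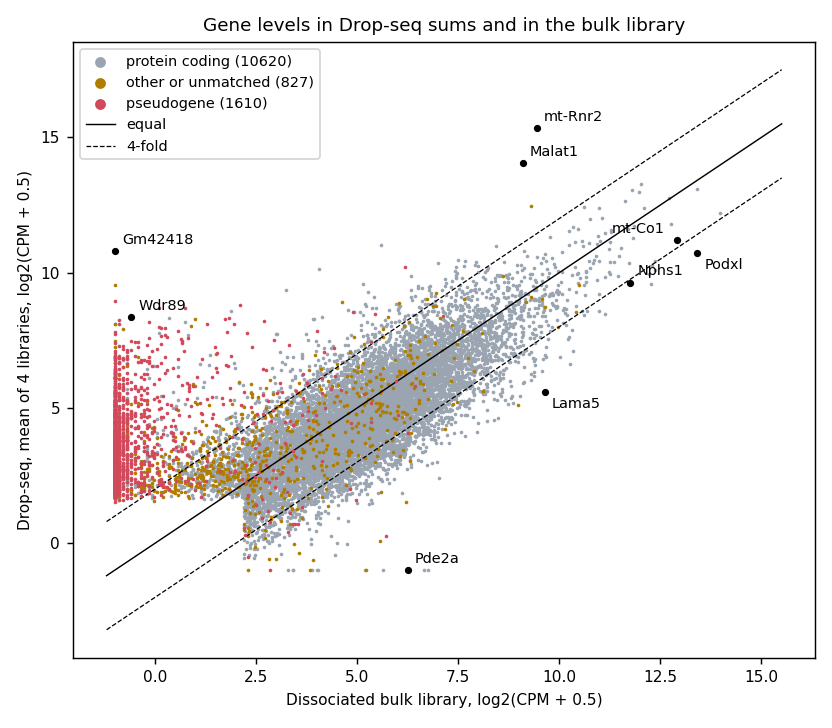
Each point is 1 of the 13057 genes, with its log2(CPM + 0.5) in the dissociated bulk library on the x axis and the same for the mean of the 4 Drop-seq libraries on the y axis; the solid line marks equal levels and the dashed lines 4-fold differences. Pseudogenes crowd the left edge, where the bulk library has few or no counts, while Lama5 and Pde2a lie below the lower dashed line.

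Processed pseudogenes, copies of spliced mRNAs that were pasted back into the genome, made up most of the 2083 genes called higher. That majority rests on the inclusion rule. Pseudogenes of all kinds held 5.19%, 3.82%, 4.45% and 4.73% of UMIs in the 4 Drop-seq libraries, against 0.205% of reads in the dissociated and 0.185% in the whole-glomeruli bulk library. The Drop-seq mean of 4.55 ± 0.572% was 22.2-fold the dissociated bulk share, and these shares do not depend on the inclusion rule. Of 1610 pseudogenes included, 1520 met the rule through UMIs only, 1487 were called higher and 8 lower. Of the 70 past both conditions, 20 were higher and 0 lower. Among the 217 higher genes past both conditions, pseudogenes were thus 20, while 167 were protein-coding.

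The alignments of the 3 pairs below show where such copies are close to the coding sequence of their parent genes; they were the gained single-exon pseudogenes with most UMIs for which at least 50% of 50-base words occur in 1 coding gene, 1 per parent. Each pair shows 80 bases of GENCODE M21 transcript sequence in the sense direction, in lower case, with a base that differs between the pair in capitals.
Fau coding bases 320 to 399: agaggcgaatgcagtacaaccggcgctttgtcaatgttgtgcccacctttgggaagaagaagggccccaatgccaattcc
Gm9843, GRCm38 chr16:76403254-76403333, minus strand: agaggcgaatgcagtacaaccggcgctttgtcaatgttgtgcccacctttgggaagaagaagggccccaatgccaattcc
Nap1l1 coding bases 1 to 80: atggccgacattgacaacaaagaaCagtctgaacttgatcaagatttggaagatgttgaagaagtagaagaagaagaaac
Gm4204, GRCm38 chr1:135232136-135232215, plus strand: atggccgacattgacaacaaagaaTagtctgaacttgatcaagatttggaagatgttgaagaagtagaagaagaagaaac
Rpl14 coding bases 341 to 420: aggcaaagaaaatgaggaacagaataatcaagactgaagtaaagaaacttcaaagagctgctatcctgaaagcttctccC
Rpl14-ps1, GRCm38 chr7:45325305-45325384, plus strand: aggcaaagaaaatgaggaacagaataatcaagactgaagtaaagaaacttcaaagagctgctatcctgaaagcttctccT
Gm9843 was identical to the Fau coding sequence over 399 of 399 bases, and Gm4204 matched the Nap1l1 coding sequence at 1088 of 1090 bases. Rpl14-ps1 matched the Rpl14 coding sequence at 524 of 651 bases. The sequences were laid side by side without gaps, so an inserted or lost base puts all later bases out of step. The 524 matches therefore do not show how close Rpl14-ps1 is outside the stretch shown.

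The copy of Fau, a gene that encodes a ubiquitin-like protein fused to ribosomal protein S30, shows the pattern. Gm9843 was at 454, 343, 435 and 409 CPM in Drop-seq and at 1.18 CPM in the bulk library, a log2 ratio of 7.92 ± 0.18. It met the inclusion rule through UMIs only, so a low bulk count was part of its selection. Fau itself was at 724, 616, 716 and 630.3 CPM against 258 CPM, a log2 ratio of 1.37 ± 0.12. Every Drop-seq library lay above the bulk library for both, by far more for the copy. The pseudogene of Nap1l1, a histone chaperone gene, was at 371, 313, 357 and 361 CPM against 43.0 CPM in bulk, with a log2 ratio of 3.01 ± 0.11, whereas Nap1l1 itself differed by -0.06 ± 0.07 and did not pass the test (adjusted p = 0.77). Rpl14-ps1 was at 367, 279, 293 and 331 CPM against 3.05 CPM, and its parent Rpl14, a large-subunit ribosomal protein gene, at 1039, 861, 934 and 899 CPM against 361 CPM. Rpl14-ps1 also met the inclusion rule through UMIs only.

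Ribosomal protein genes have the most such copies. Of 1485 processed pseudogenes called higher among 1597 tested, 815 shared at least 10% of their 50-base words with a coding gene, and for 353 that gene was a ribosomal protein gene. In the families of 75 ribosomal protein genes, pseudogenes held 27.1%, 22.7%, 24.8% and 26.8% of the family's UMIs, against 2.36% of its reads in bulk. Rpl21 had 49 joined pseudogenes, which together stood at 1362, 784, 1042 and 1132 CPM in Drop-seq and 3.14 CPM in bulk, while Rpl21 itself stood at 1156, 889, 1024 and 878 CPM and 434 CPM. Adding the copies moved the log2 ratio of Rpl21 from 1.18 to 2.23 and the median over the 75 families from 1.26 to 1.71. The bulk table lists 14.7% of all its reads, assigned to genes or not, as not uniquely placed. How multiply placed reads were treated in the Drop-seq tables is not given in the sources used here, and the part of read placement in these differences was not tested.

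Among the 8 pseudogenes called lower, Gm10736 had the lowest log2 ratio. It met the inclusion rule through bulk counts only, so a low UMI count was part of its selection. Gm10736, a 78-base pseudogene whose closest coding gene is Rpl41, was at 1.11, 0.624, 0.567 and 0.484 CPM in Drop-seq and at 52.2 CPM in bulk, a log2 ratio of -5.49 ± 0.32 (adjusted p = 9.9e-07). Rpl41 itself was at 1104, 837, 866 and 824 CPM against 414 CPM.

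**Figure D2:**
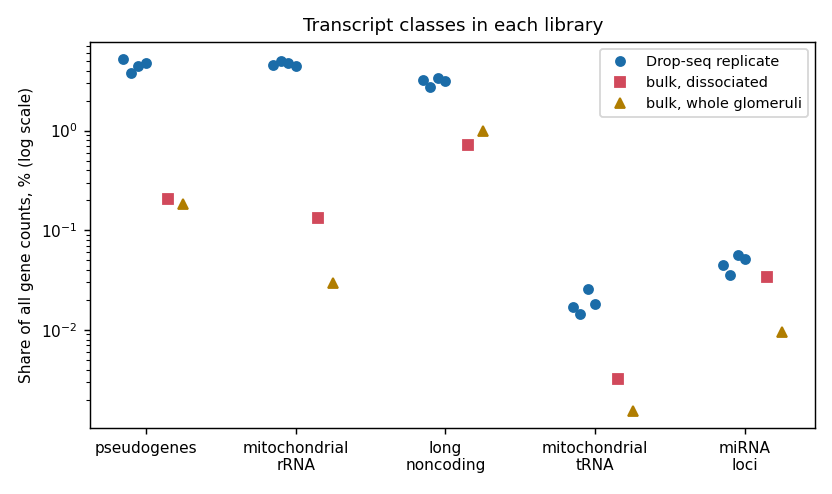
Share of all gene counts (percent, log scale) held by 5 transcript classes, with a circle for each Drop-seq replicate, a square for the dissociated bulk library and a triangle for the whole-glomeruli bulk library. Pseudogenes hold 3.82% to 5.19% of UMIs and 0.205% of dissociated bulk reads, and mitochondrial ribosomal RNA 4.47% to 5.02% and 0.133%.

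Several other genes gained in Drop-seq have exons that lie opposite those of another gene. Wdr89, which encodes a WD-repeat protein, headed the named genes with 394, 251, 324 and 334 CPM against 4 bulk reads, but it has no annotated gene opposite. Wdr89 met the inclusion rule through UMIs only. Behind it, Cox20, an assembly factor of cytochrome c oxidase, was at 234, 209, 205 and 214 CPM against 0.570 CPM in bulk (log2 ratio 7.65 ± 0.09, adjusted p = 5.7e-07), and 91.1% of its exonic bases lie opposite exons of Hnrnpu. Ilk, the integrin-linked kinase that joins integrins to the cytoskeleton, was at 240.4, 208, 171 and 214 CPM against 1.26 CPM (log2 ratio 6.88 ± 0.20), with 89.7% of its exonic bases opposite other genes, Taf10 among them. Both genes were far above the bulk value in each of the 4 libraries.

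Med10 and Snhg3 had no bulk reads at all. Med10, a Mediator subunit, had 298, 350, 192 and 223 UMIs and 0 reads in either bulk library, at least 469-fold higher in Drop-seq when the bulk value is set to 3 reads. Snhg3, a small nucleolar RNA host gene, had 316, 400, 247 and 286 UMIs and 0 bulk reads, at least 557-fold higher on the same basis. Snrpf, a core protein of spliceosomal small nuclear ribonucleoproteins, was at 109.9, 84.8, 92.7 and 84.7 CPM against 0.489 CPM. All 5 of these genes, Cox20 and Ilk included, met the inclusion rule through UMIs only, so a low bulk count was part of their selection. Med10, Snhg3 and Snrpf have 92.8%, 71.5% and 85.4% of their exonic bases opposite other genes.

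Protein-coding genes with most of their exonic bases opposite another gene were called higher more often than those without, but part of that count comes from genes included through UMIs only. Of 7206 with no exonic base opposite another gene, 187 (2.60%) were higher and the median log2 ratio was -0.47. Of 2993 with up to 25% of their bases opposite, 65 (2.17%) were higher, and of 334 with 25% to 50%, 40 (12%). Of 61 with 50% to 75% of their bases opposite, 22 (36.1%) were higher, with a median of 1.71. Of 26 with more than 75%, 18 (69.2%) were higher and 0 lower, with a median of 3.08. Among genes past both conditions 94 of 6396 (1.47%) without overlap were higher, 11 of 44 (25%) with 50% to 75% and 1 of 6 (16.7%) with more, so the share did not rise further with the overlap there. The medians were -0.45 for 6396 genes without overlap, 1.42 for 44 genes with 50% to 75% and 1.77 for 6 genes with more. The bulk kit marks strand, but the strand setting used in counting is not given in the sources used here. Of all reads listed, assigned or not, 3.87% are ambiguous. Whether the counting set these values was not tested.

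Of 3 predicted genes at the top of the list, 2 lie opposite another gene. All 3 met the inclusion rule through UMIs only. Gm42418, a long noncoding RNA model at chr17:39846958-39848788 on GRCm38, had 6404, 11114, 7506 and 7785 UMIs and 0 reads in both bulk libraries, so that it was at least 14677-fold higher, and 99.5% of its bases lie opposite another annotated gene. Gm37376, at chr19:5801941-5802393, had 3489, 3318, 3321 and 3156 UMIs against 0 reads, and all of it lies opposite Malat1. UMIs of Gm42418 occurred in 10207 barcodes and those of Gm37376 in 6654, summed over the 4 tables, so neither count came from a few barcodes. The third, Gm37421, a processed pseudogene at chr3:10232180-10232311, had 2638, 2988, 1390 and 2210 UMIs against 0 reads and has no base opposite another gene.

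Long noncoding and mitochondrial ribosomal RNA were also more abundant in Drop-seq. Malat1, a nuclear-retained noncoding RNA, was at 17741, 14120, 18511 and 16803 CPM against 545 CPM in bulk, 30.8-fold higher on average, with a log2 ratio of 4.94 ± 0.17 (adjusted p = 2.5e-06). Kcnq1ot1, an unspliced imprinted RNA of 93092 bases, was at 477, 422, 561 and 479 CPM against 24.1 CPM. Of 18 listed long noncoding RNAs that were included, 7 were higher and 1 lower, with a median of 1.78. The exception was Firre, an X-linked nuclear RNA, at 34.1, 34.6, 34.6 and 35.1 CPM against 164 CPM. Neat1, the scaffold of paraspeckles, was called in neither direction at a log2 ratio of -0.95 ± 0.32, which turned to 1.57 per length. Long noncoding genes as a class held 3.12 ± 0.273% of UMIs and 0.722% of bulk reads. Malat1 alone averaged 16794 CPM in Drop-seq, so a large part of the class share of UMIs came from 1 gene.

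The 16S mitochondrial ribosomal RNA mt-Rnr2 was the most abundant gene of the Drop-seq libraries among those described here, at 41527, 43470, 41404 and 38918 CPM against 696 CPM in the dissociated and 181 CPM in the whole-glomeruli bulk library. Its log2 ratio was 5.89 ± 0.07 (adjusted p = 1.4e-06). The 12S RNA mt-Rnr1 was at 4198, 6688, 5801 and 5750.1 CPM against 632 CPM, a log2 ratio of 3.13 ± 0.28. Both were higher in all 4 libraries, and together they held 4.69 ± 0.239% of UMIs against 0.133% of bulk reads. Mitochondrial ribosomal RNAs carry at most short tails, so A-rich stretches inside them are shown, as places where oligo-dT can anneal. The densest 20 bases of mt-Rnr2, in capitals, hold 16 A in this stretch of chrM:1468-1527 (GRCm38, plus strand).
mt-Rnr2: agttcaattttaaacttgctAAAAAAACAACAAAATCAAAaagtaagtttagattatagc
The densest 20 bases of mt-Rnr1 hold 15 A. Whether priming took place there was not tested.

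The mitochondrially encoded mRNAs differed less. Of 13, 7 were included, 0 were called, and by adjusted p 6 were above and 1 below the bulk library. mt-Cytb, a subunit of complex III, was at 5608, 11026, 8158 and 7509 CPM against 4035 CPM, a log2 ratio of 0.96 ± 0.40, which turned to -0.70 with bulk counts divided by exonic length. mt-Co1, the catalytic subunit of cytochrome c oxidase, was the one below, at 1919, 3151, 2259 and 2056 CPM against 7706 CPM, a log2 ratio of -1.74 ± 0.32 (adjusted p = 2.0e-04). The list's median of 1.15 turned to -0.65 when bulk counts were divided by exonic length.

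miRNA loci went both ways. Mir692-1 had 513, 532, 387 and 512 UMIs against 0 bulk reads, and Mir703 had 513, 514, 501 and 533 UMIs against 6. Mir6236 was at 1.56, 2.65, 3.40 and 1.94 CPM in Drop-seq and 73.6 CPM in the dissociated bulk library, 30.8-fold lower, but only 4.47 CPM in whole glomeruli. Mir6236 met the inclusion rule through bulk counts only, Mir692-1 and Mir703 through UMIs only. Neither kind of library selects molecules as short as a mature miRNA, so these counts stand for RNA that overlaps the locus. The RefSeq hairpins (GRCm38.p6) of both gained loci are printed to show what is annotated there, with the seed of the mature miRNA (bases 2 to 8) in capitals.
Mir692-1, chr17:6895229-6895337, minus strand: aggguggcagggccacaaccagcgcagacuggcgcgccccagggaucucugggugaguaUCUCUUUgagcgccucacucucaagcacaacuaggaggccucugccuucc
Mir703, chr5:98475556-98475664, minus strand: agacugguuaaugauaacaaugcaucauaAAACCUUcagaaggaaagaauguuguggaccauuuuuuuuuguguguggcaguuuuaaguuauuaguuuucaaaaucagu

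Short coding genes stood higher in Drop-seq and long ones lower. Exonic length counts every base covered by an exon of any annotated transcript of a gene. It can therefore exceed the length of the mRNA present, and values per length carry that limit. Among 9409 protein-coding genes past both conditions, the median log2 ratio was 1.74 for 132 genes with 500 to 1000 exonic bases, 0.69 for 876 genes of 1000 to 2000, -0.08 for 1345 genes of 2000 to 3000 and -0.75 for 2256 genes of 6000 to 10000. Across these genes the ratio and the exonic length had a Spearman rho of -0.356 and a Pearson r of -0.394, and genes are not independent replicates. Dividing bulk counts by exonic length turned the rho to 0.404. GC content separated long genes further. Of 2108 genes over 4000 bases with GC above 50%, 334 (15.8%) were lower and the median was -1.36. Of 3545 genes over 4000 bases with GC up to 50%, 76 (2.14%) were lower and the median was -0.39. Among genes of 2000 to 4000 bases, the median was -0.57 for 655 genes with at most 11 A in any 20 bases and 0.26 for 380 genes with more than 15.

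**Figure D3:**
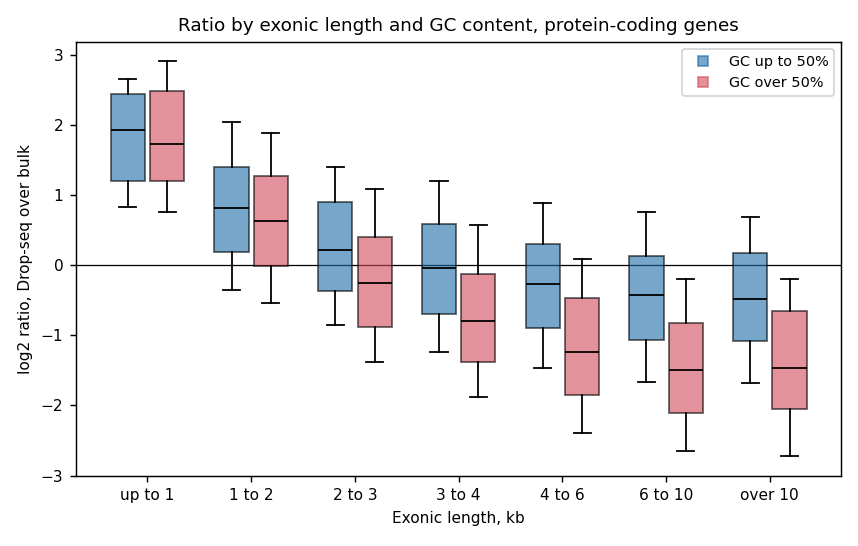
Log2 ratio of Drop-seq over dissociated bulk for the 9409 protein-coding genes past both conditions, by exonic length on the x axis (kb) and by GC content; boxes span the quartiles with the median as a line, and whiskers the 10th to 90th percentile of genes. The medians fall with length, and from 2 kb on the boxes for GC over 50% lie below those for GC up to 50%.

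Genes of oxidative phosphorylation, whose nuclear-encoded subunits are mostly small proteins, stood mostly above the bulk library. Of 78, all were included, 39 were higher and 0 lower (66 and 2 by adjusted p alone), and the median log2 ratio was 2.15, between 2.04 and 2.34 in single libraries. Cox7c, a small subunit of cytochrome c oxidase, was at 743, 731, 651 and 636 CPM against 97.2 CPM (log2 ratio 2.82 ± 0.11). Uqcr11, a subunit of complex III, was at 599.7, 620.3, 506 and 512 CPM against 86.2 CPM (log2 ratio 2.69 ± 0.15). Ndufb2, a complex I subunit, had the largest log2 ratio of the 39, 4.35 ± 0.14. Its annotated exons cover 5628 bases over all transcripts together, which need not be the length of the mRNA present. On that length its log2 ratio was 4.96. With bulk counts divided by exonic length, the list's median fell to 0.58 and 11 were higher. Cox8a went from 2.46 to -0.09, which did not pass the test (adjusted p = 0.71).

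Cytosolic ribosomal protein genes stood mostly above the bulk library. Of 81, all were included, 8 were higher and 0 lower (71 and 0 by adjusted p alone), with a median of 1.31 that fell to 0.28 per length. Over all genes 16.0% were called higher, and 32.9% were higher by adjusted p alone. Rpl13a, of the large subunit, was at 1285, 989, 1074 and 1133 CPM against 16.2 CPM, a log2 ratio of 6.06 ± 0.16 (adjusted p = 7.4e-07), while Rps9, of the small subunit, was at 939, 934, 1022 and 930.3 CPM against 409.8 CPM. Of the exonic bases of Rpl13a, 35.4% overlap another gene on the same strand. Of 12 listed replication-dependent histone genes that were included, 6 were higher and 0 lower (8 and 2 by adjusted p alone). Of these 6, 3 (Hist1h2bj, Hist1h2bl and Hist2h2ac) met the inclusion rule through UMIs only, and the median was 0.98 over the 8 genes past both conditions against 1.76 over all 12. Hist1h2bc, the most abundant of them, was at 959, 779, 709 and 815 CPM against 163 CPM.

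The genes lost included long, GC-rich transcripts of the basement membrane and cytoskeleton. The 553 protein-coding genes called lower had a median exonic length of 6383 bases and a median GC content of 54.5%, against 4620 bases and 49.7% over all 10620 protein-coding genes included. Of 46 listed basement membrane and giant structural genes, 39 were included, 15 were lower and 0 higher (36 and 0 by adjusted p alone), and 39 of 39 had a ratio below 0 in each of the 4 libraries, with a median of -2.27. Lama5, the laminin chain of the mature glomerular basement membrane, was at 37.0, 43.8, 60.6 and 51.3 CPM against 798 CPM, 16.6-fold lower on average, with a log2 ratio of -4.06 ± 0.30 (adjusted p = 9.9e-07). Agrn, which encodes the heparan sulfate proteoglycan agrin, was at 58.9, 55.5, 73.1 and 69.4 CPM against 629 CPM (log2 ratio -3.29 ± 0.19). Col18a1, the precursor of endostatin, was at 73.8, 121, 138 and 133 CPM against 1032 CPM (log2 ratio -3.18 ± 0.42). The collagen IV chain gene Col4a3 differed less, at 838, 992, 956 and 992 CPM against 2792 CPM, and was not called. Lama5 has a GC content of 59.9% over 11388 exonic bases and Col4a3 of 50.4% over 9967. Per length the list's median was -0.11 and 2 genes, Lama5 and Lamb2, remained lower.

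The genes described next were chosen for the size of their loss. Itga3, the integrin subunit through which podocytes hold laminin, was at 92.8, 88.0, 102 and 112 CPM against 1239 CPM, 12.6-fold lower on average, with a log2 ratio of -3.65 ± 0.15. Plxnb1, a semaphorin receptor, was at 20.5, 21.8, 26.6 and 27.8 CPM against 358 CPM (log2 ratio -3.87 ± 0.21). Mrc2, a collagen-binding endocytic receptor, was at 22.7, 21.7, 22.7 and 22.7 CPM against 294 CPM (log2 ratio -3.68 ± 0.03). Sptbn5, a giant beta-spectrin, Ntng2, a netrin-like membrane-anchored protein, and Pkd1, the gene for polycystin 1, had log2 ratios of -3.88 ± 0.12, -3.87 ± 0.21 and -3.84 ± 0.14. Helz2, a helicase and transcriptional coactivator, had -4.72 ± 0.66, Med12, a Mediator kinase-module subunit, -4.26 ± 0.34, and Arrb1, beta-arrestin 1, -3.88 ± 0.46. All were lower than bulk in each of the 4 libraries. Med12 met the inclusion rule through bulk counts only, so a low UMI count was part of its selection. Of its last 500 exonic bases, 100% are shared with another gene on the same strand. With bulk counts divided by exonic length, Pkd1 (log2 ratio -1.60) and Arrb1 (-2.25) were no longer called lower. The other genes named here were still called lower on that scale.

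**Figure D4:**
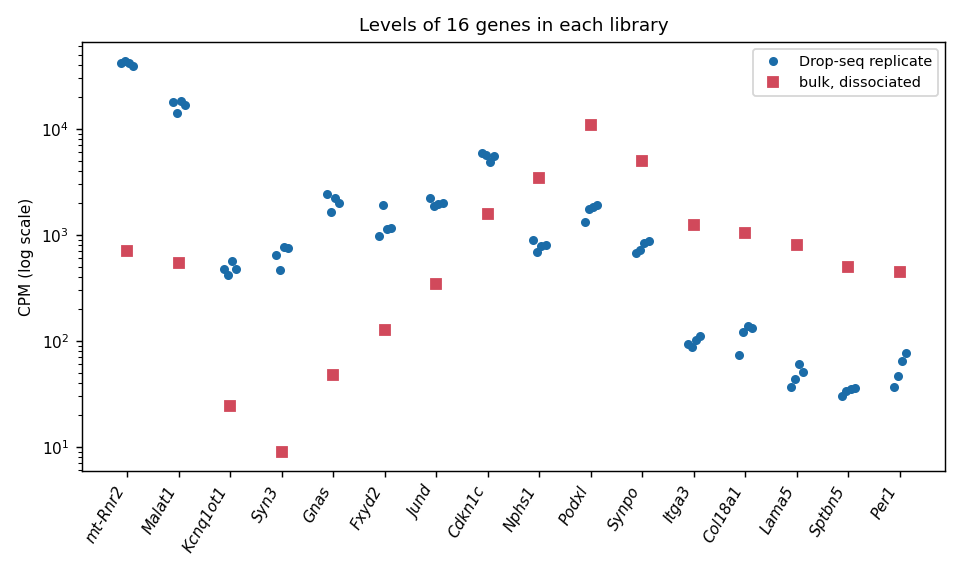
CPM on a log scale for 16 genes, with a circle for each of the 4 Drop-seq replicates and a square for the dissociated bulk library. The 8 genes on the left lie above the bulk library in every replicate and the 8 on the right below it, with Lama5, Sptbn5 and Itga3 more than 10-fold apart.

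A separate set of 15 genes had no row in the Drop-seq tables, which was taken as 0 UMIs, although the bulk library held at least 100 reads of each, and all 15 were called lower. Mia2, a gene for endoplasmic reticulum export proteins, had 2616 bulk reads and 0 UMIs, at least 125-fold lower in Drop-seq when its level is set to 3 UMIs of the shallowest library. Map2k7, a kinase that activates JNK, had 2444 reads and was at least 117-fold lower. Pde2a, a cGMP-stimulated phosphodiesterase, had 1853 reads, was at least 88.8-fold lower, and stood at 449 CPM in whole glomeruli. Hspa14, an Hsp70-family ribosome-associated chaperone, had 1212 reads. Of the 13 that could be matched to GENCODE M21, 8 (61.5%) share exonic bases with another gene on the same strand, against 871 of 10620 protein-coding genes included (8.20%). For Pde2a the share is 64.3% of its exonic bases and 98.4% of its last 500. The other gene, Gm45837, has no row under that name in the count tables. The same is true of Gm49320 and Gm45902, which overlap Map2k7 and Hspa14. Of 52 coding genes with more than 90% of their last 500 exonic bases shared on the same strand, 15 (28.8%) were lower and 7 (13.5%) higher. Of 23 with 50% to 90% shared, 9 (39.1%) were higher and 0 lower, and of 91 with up to 50%, 12 (13.2%) were higher and 1 lower. Without such sharing 304 of 10454 (2.91%) were higher and 537 (5.14%) lower. These counts were not repeated for genes past both conditions, so no direction is read from them.

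Podocyte genes were lower in Drop-seq in part. Of 44 listed slit diaphragm and podocyte markers, 43 were included, 9 were lower and 0 higher (31 and 6 by adjusted p alone), and the median log2 ratio was -1.05, between -1.06 and -0.98 in single libraries. Podxl, the sialomucin that coats foot processes, was at 1333, 1762, 1849 and 1896 CPM against 10885 CPM, 6.37-fold lower on average, with a log2 ratio of -2.68 ± 0.23 (adjusted p = 5.2e-06). Synpo, an actin-binding protein of foot processes, was at 679.7, 717, 831 and 866 CPM against 4962 CPM (log2 ratio -2.69 ± 0.17). Ptpro, a receptor tyrosine phosphatase of the podocyte surface, was at 321, 359, 370.4 and 362 CPM against 2243 CPM. Nphs1 had a log2 ratio of -2.13 ± 0.15 and was not called, since not every library was 4-fold lower. Cdkn1c, a cell-cycle inhibitor of mature podocytes, ran against the list at 5898, 5644, 4883 and 5601 CPM against 1573 CPM. Podocyte transcripts thus lay on both sides of the bulk level. Per length the list's median was -0.36 and 2 were lower and 1 higher.

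Markers of the other glomerular and kidney cells varied more between the Drop-seq libraries. The 27 endothelial markers included had a median of -1.21, between -2.19 and -0.77 in single libraries, and none was called, with 16 lower and 1 higher by adjusted p. Emcn, an endothelial sialomucin, was at 150.1, 78.9, 239 and 156 CPM against 408 CPM, and Pecam1, an endothelial adhesion molecule, at 51.1, 27.4, 92.4 and 64.1 CPM against 212 CPM, lowest in replicate 2 for both. Mesangial, smooth muscle and renin-cell markers had a median of 0.12 over 21 genes, which turned to -0.09 per length. Of the 21, 4 met the inclusion rule through UMIs only, Tagln among them. Over the 16 past both conditions the median was -0.17. Pdgfrb, the mesangial growth factor receptor, was lower at 11.4, 14.5, 11.1 and 13.3 CPM against 122 CPM, and Tagln, a smooth muscle actin-binding protein, was higher at 93.2, 53.7, 85.0 and 128 CPM against 0.977 CPM, with 67.9% of its exonic bases opposite another gene. Of 27 distal tubule and collecting duct markers, 3 were higher and 0 lower (9 and 1 by adjusted p alone). Over all genes 16.0% were higher, and 32.9% by adjusted p alone, so the list was not called higher more often. Its median of 0.29 ran from -0.06 to 1.40 in single libraries. Fxyd2, the gamma subunit of the sodium pump, was at 982, 1928, 1147 and 1167 CPM against 128 CPM, highest in replicate 2. In these summed libraries fewer cells of a type and less RNA per cell cannot be told apart.

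The remaining cell lists had few members included. Of 23 immune markers 14 were included, 0 were higher and 2 lower, Lyz2 and Coro1a (0 and 9 by adjusted p alone), with a median of -1.32. Of these 14, 7 met the inclusion rule through bulk counts only, and the median was -1.105 over the 7 past both conditions. Lyz2, the lysozyme of macrophages, was at 7.14, 4.83, 3.97 and 5.32 CPM against 52.0 CPM. The 9 parietal epithelial markers included had a median of -0.98, with none called (2 higher and 5 lower by adjusted p alone). Of 28 proximal tubule markers, 5 were included, with 1 higher and 1 lower. Of the red blood cell genes 3 were included and none was called: Hba-a1, alpha globin, was at 74.3, 72.8, 99.2 and 0 CPM against 12.7 CPM, so that replicates 1 to 3 lay above bulk and replicate 4 had none.

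**Figure D5:**
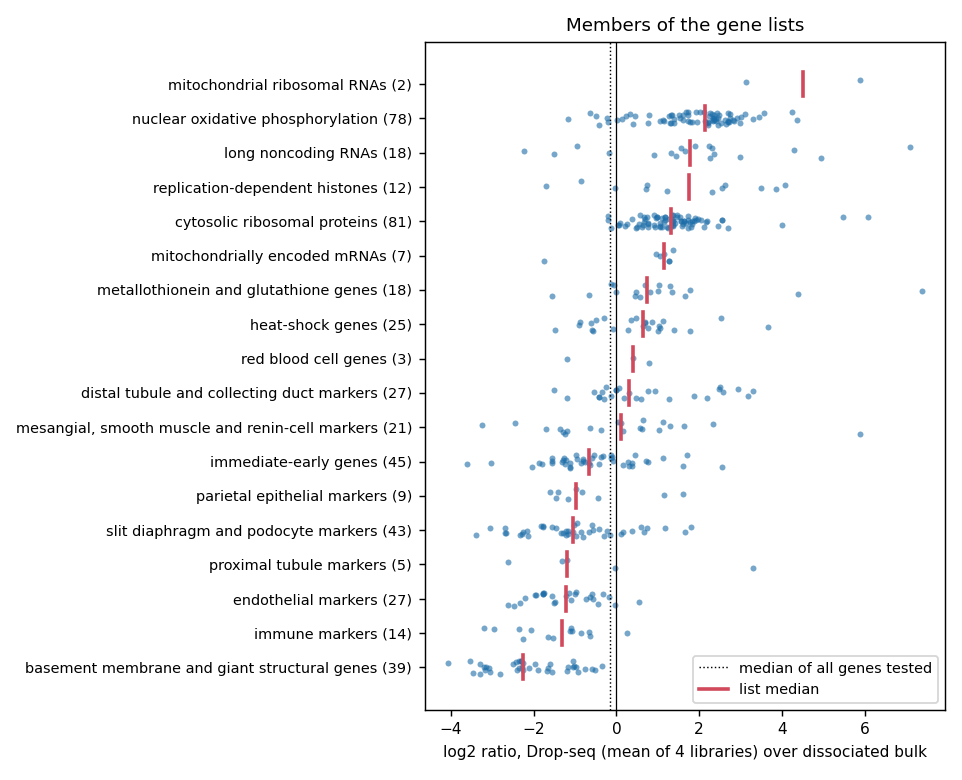
Log2 ratio of Drop-seq (mean of 4 libraries) over dissociated bulk for each included member of 18 gene lists, with the number of members in parentheses, the list median as a bar and the median of all genes as a dotted line. Mitochondrial ribosomal RNAs, oxidative phosphorylation genes and long noncoding RNAs lie highest, and basement membrane and giant structural genes lowest, all 39 below 0.

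Immediate-early genes, which are known to be induced when live tissue is dissociated, were high on both sides of the comparison. Of 48 listed, 45 were included, 1 was higher and 2 lower, and the median was -0.67. By adjusted p alone 7 were higher and 23 lower. Fos was at 7911, 8944, 8888 and 8879 CPM against 10775 CPM in the dissociated and 1046 CPM in the whole-glomeruli library. Atf3, a stress-induced transcription factor, was at 3221, 3153, 3363 and 3769.8 CPM against 3682 CPM and 55.9 CPM. Neither passed the test against dissociated bulk (adjusted p = 0.16 and 0.55). Jund was the one higher, at 2238, 1874, 1939.9 and 2011 CPM against 343 CPM. Per1, a circadian repressor, was lower at 37.0, 46.6, 65.2 and 76.0 CPM against 444 CPM. Egr3, a zinc-finger factor, was lower at 1.34, 0.624, 0.283 and 1.21 CPM against 15.4 CPM. Egr3 met the inclusion rule through bulk counts only, so a low UMI count was part of its selection. Of 25 heat-shock genes 1 was higher and 0 lower (11 and 5 by adjusted p alone). Hspe1, the mitochondrial co-chaperonin, was at 429, 552, 474 and 758 CPM against 42.3 CPM, highest in replicate 4, and Hspa1a, an inducible Hsp70, at 463, 851, 900.4 and 1268 CPM against 143 CPM, also highest in replicate 4.

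Mt1 and Mt2, which encode metallothioneins, small metal-binding proteins, were higher in Drop-seq. Of 18 metallothionein and glutathione genes 2 were higher and 0 lower (11 and 2 by adjusted p alone), beside 16.0% called higher over all genes. Mt1 was at 727, 1130.1, 656 and 547 CPM against 34.7 CPM, a log2 ratio of 4.39 ± 0.44 (adjusted p = 2.8e-05). Mt2 was at 299, 413, 244 and 199 CPM against 1.18 CPM, a log2 ratio of 7.37 ± 0.45, included through UMIs only and with 73.5% of its exonic bases opposite another gene. Replicate 2, with the highest share of distal tubule markers, was also the highest for both.

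With bulk counts divided by exonic length, 1903 of 12729 genes with a length (15.0%) were higher and 261 (2.05%) lower. On both scales 1626 genes were higher and 156 lower, of which 65 and 89 were past both conditions. Gnas, the gene of the stimulatory G protein alpha subunit, was at 2414, 1645, 2235 and 2002 CPM against 47.7 CPM and had a log2 ratio of 5.41 ± 0.24, or 7.01 per length. Syn3, a synapsin gene with 14.1% of its exonic bases opposite Timp3, was at 642, 468, 767 and 754 CPM against 221 bulk reads, a log2 ratio of 6.09 ± 0.33, or 7.68 per length. Timp3, the metalloproteinase inhibitor, was itself at 2819, 2352, 3107 and 3269.9 CPM against 2466 CPM and did not pass the test (adjusted p = 0.36).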

How the data were processed

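The tools named are STAR and HTSeq, per the submitters' processing notes. The genome build, annotation, strand setting and treatment of multiply placed reads are not given in the sources used here. The authors deposited 4 tables of UMI counts per gene and barcode and, for each bulk library, read counts per gene with HTSeq's unassigned categories. Those categories (no feature 6.14%, ambiguous 3.87% and not unique 14.7% of all reads listed, assigned or not, dissociated library) were left out of totals. UMIs were summed over all barcodes, with no doublets called or removed. edgeR 4.0.16 (quasi-likelihood, library totals, no TMM) was fitted to 4 Drop-seq libraries and 1 bulk library over 13057 genes and adjusted over all of them. DESeq2 1.42.0 was an alternative. On simulated data with known fold changes the fit recovered the direction. All simulated libraries, the bulk one included, were drawn from the Drop-seq means with the same spread. A bulk library that varies in another way was therefore not covered. Gene features came from GENCODE M21 (GRCm38), matched by name for 12729 genes. Some overlapping genes have no row under their GENCODE name in the deposited counts. Among them are those with the largest overlap of Gm42418, Mt2, Tagln and Rpl13a. Named genes were the 15 with the largest ratio in the library nearest to 0 in each direction (at least 100 UMIs per table, or 1000 bulk counts), 3 predicted genes apart, and list members; some that the rule names are not reported here. The members and lists were chosen with earlier results of these data known. Proportions and floors of 3 counts cover counting error only. A kept barcode, used in an alternative, has at least 300 genes and at most 20% mitochondrial UMIs.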

Additional observations from a re-analysis of the deposited data

Results flagged for a closer look

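Of 175 named genes, 13 had 1 Drop-seq library far from the other 3 by Dixon's test; chance flags about 1 gene in 20. Replicate 4 had 0 CPM of Hba-a1 and 0.726 CPM of Hbb-bs, where the other libraries had 72.8 to 99.2 and 103 to 195 CPM. Replicate 2 was low for Akap12, a kinase-anchoring scaffold protein, at 38.2 CPM against 89.9 to 102, for Snhg3 at 62.4 CPM against 69.2 to 70.5 and for Mrc2 at 21.7 CPM against 22.7 to 22.8, and high for Ndufb2 at 357 CPM against 294 to 299. Replicate 1 was high for Cox17 at 446 CPM against 354 to 363, for Gsta4 at 451 CPM against 351 to 358, for Med10 at 66.5 CPM against 54.0 to 54.6 and for Rpl10 at 1500 CPM against 1207 to 1236. The same library was low for Fos at 7911 CPM against 8879 to 8944 and for Gata3 at 15.6 CPM against 21.3 to 22.0. Replicate 4 was high for Pkd1 at 7.98 CPM against 6.47 to 6.55.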

How the results depend on the processing

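The count of higher genes was 217 among genes past both conditions, against 2083. In alternatives chosen after seeing the data, it was 408 with only protein-coding genes. It was 801 with only genes sharing under 5% of their 50-base words with other genes. These alternatives also took library totals over their own genes, which rescales CPM. On the main totals 332 protein-coding genes were higher. The count of lower genes, 589, was 369 with DESeq2, 261 per length, 2654 at 2-fold and 84 at 8-fold. Leaving out each Drop-seq library in turn gave 2140 to 2309 higher and 608 to 737 lower genes. The inclusion rule and the 4-fold rule ask for every Drop-seq library, so leaving 1 out loosens both and favours larger counts. Per length the median of the mitochondrially encoded mRNAs reversed to -0.65. Of 175 named genes, 31 changed sign per length, and 16 of these had passed by adjusted p: the log2 ratio turned positive for Dst (1.83), Neat1 (1.57), Col4a4 (0.50), Ahnak (0.35), Cxcl12 (0.34) and Txnrd1 (0.29), and negative for mt-Nd6 (-1.76), Ly6a (-1.05), Gsta4 (-0.94), mt-Cytb (-0.70), mt-Nd2 (-0.65), mt-Nd1 (-0.54), Rpl10 (-0.36), mt-Nd4 (-0.12), Cox8a (-0.085) and Hspb1 (-0.029). A further 7 named genes were newly called per length and 17 no longer called. TMM changed the sign of 12 named genes and leaving out 1 Drop-seq library that of 3 to 7, none of which had passed by adjusted p. No paired analysis was possible because the bulk side has 1 library and shares no more than 1 replicate number with Drop-seq. Depth limits low genes: 3 UMIs in the shallowest Drop-seq library are 0.850 CPM, and 3 bulk reads 0.122 CPM.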
